A study of Rattus norvegicus with 22 samples.

Results

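Expression of 10 genes of glucose uptake and glycolysis was compared between oral squamous cell carcinomas (OSCC) of the rat tongue and adjacent phenotypically normal tongue. The genes were the glucose transporters Slc2a1 and Slc2a4, the hexokinase Hk2, the phosphofructokinases Pfkm and Pfkp, the kinase Pgk1, the enolases Eno1 and Eno3, the pyruvate kinase Pkm2 and the lactate dehydrogenase Ldha. They were chosen by name from the 19167 gene symbols on the array, all 10 were found there, and together they carry 14 of the 30367 probes. Where a gene had more than 1 probe, the one brightest over the 22 arrays stands for it. Pfkm, Eno3 and Slc2a4 are called muscle isoforms below, and Pfkp, Eno1, Slc2a1 and Hk2 tumor isoforms. These class names come from the way the genes were chosen, and Hk2 is also a main hexokinase of skeletal muscle.

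The tissues came from 11 male F344 rats of about 33 weeks of age, each giving 1 piece of OSCC and 1 piece of normal tongue, harvested 23 to 26 weeks after the first exposure to the carcinogen 4-nitroquinoline 1-oxide (4-NQO). By the protocol, 4-NQO was given at 20 ppm in drinking water for 10 weeks, and the normal pieces came from the same treated rats. The sample titles nevertheless call every animal untreated, and the treatment label of the normal pieces reads none. Normal pieces therefore stand for carcinogen-exposed tongue, not for tongue of unexposed rats. Each piece was bulk tissue, so that fewer cells of a type and less RNA per cell cannot be told apart.

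Glycolysis splits glucose into pyruvate in the cytosol and yields ATP without oxygen, and lactate dehydrogenase returns the pyruvate to lactate. Most of its steps are served by isoforms from separate genes, or by splice forms of 1 gene, that are used in different tissues. Skeletal muscle, which fills the body of the tongue, uses the insulin-responsive transporter encoded by Slc2a4, the phosphofructokinase subunit encoded by Pfkm, the enolase encoded by Eno3 and the M1 form of pyruvate kinase. Proliferating epithelia and many carcinomas use the basal transporter encoded by Slc2a1, the subunit encoded by Pfkp, the enolase encoded by Eno1 and the M2 form of pyruvate kinase.

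The pyruvate kinase probes show how the array separates such forms, and 2 of their sequences are given because the result for this gene turns on them. The muscle (M1) and the M2 form arise from the same gene by the choice between a pair of alternative exons. The array's annotation names the gene only. From what is known of these exons, the first of the probes below reads the exon kept in the M1 form, and the second reads coding sequence kept in both forms. Neither was matched to a transcript here. Positions are those of the array annotation on rat build rn4, plus strand, and both are printed 5′ to 3′ in lower case throughout, because each probe counts as a whole.
Pkm2 M1 exon probe, chr8:63504373-63504432: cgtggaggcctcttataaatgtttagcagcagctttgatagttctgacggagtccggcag
Pkm2 shared coding probe, chr8:63507002-63507061: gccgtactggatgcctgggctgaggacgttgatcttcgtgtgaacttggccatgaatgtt
The starts of these probes lie 2629 bases apart, and a last probe of the gene, its brightest, starts 1059 bases after the shared one. For the isoforms from separate genes, the probes hardly resemble each other. The longest run of letters in common was 6 bases for Eno1 and Eno3, 6 for Pfkp and Pfkm and 5 for Slc2a1 and Slc2a4, out of probes of 60 bases.

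Levels are log2 signals relative to the 75th percentile of the array, so that 0 is that percentile and 1 unit is a doubling. Changes are the OSCC level minus the normal level. They were tested with limma with terms for rat and tissue, adjusted by the Benjamini-Hochberg method over all probes. Calls needed an adjusted p under 0.05 together with a difference of 2-fold or more. All 14 probes were well above background on all 22 arrays, and no spot was saturated. Scanning took place over 2 days. The first day covered all 11 normal arrays with the OSCC of animals 4 and 9, the second covered 9 OSCC arrays, and no slide held both tissues. The median change of all gene symbols was -0.21, so a change of that size is the middle of the array.

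Of the 10 genes, 1 was called higher in OSCC (Slc2a1) and 3 were called lower (Slc2a4, Pfkm and Eno3). Over all gene symbols, 7.48% were called higher and 7.24% lower. The calls over all probes were 49.6% higher ones, and 32.8% when arrays were scaled to their median instead. The remaining 6 genes were not called, and the median change of the 10 genes was -0.38.

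The 3 muscle isoforms fell together, by 5.31-fold to 7.46-fold on average, and their fall varied greatly from rat to rat. Slc2a4, whose product carries glucose into muscle and fat cells in response to insulin, ranged in normal tongue from 3.37 through a median of 3.99 to 4.24 and in OSCC from -2.39 through 1.00 to 3.90. It was lower in OSCC in all 11 rats, and 9 of the 11 OSCC lay below every normal piece, the exceptions being animals 22 and 24. The mean went from 3.90 ± 0.33 to 1.00 ± 2.13 (SD, n = 11 each), a fall of 7.46-fold (log2 change -2.90, SE 0.57, limma adjusted p = 0.0025).

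Eno3, the enolase of skeletal muscle, ranged from 6.88 through 7.41 to 7.70 in normal tongue and from 1.31 through 4.42 to 7.60 in OSCC. The OSCC of animals 21, 22 and 24 lay within the range of the normal pieces and the other 8 lay below all of them. The fall was 5.98-fold (log2 change -2.58, SE 0.57, limma adjusted p = 0.0046), and in animal 13, where it was deepest, the change was -5.67.

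Pfkm, the muscle subunit of the enzyme that commits sugar to glycolysis, ranged from 5.09 through 5.72 to 5.94 in normal tongue and from 0.30 through 2.98 to 5.87 in OSCC. The same 3 OSCC, of animals 21, 22 and 24, lay within the normal range and the same 8 below it. The change was -2.41 (SE 0.52, limma adjusted p = 0.0041), a 5.31-fold fall.

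Without animals 21, 22 and 24 the falls were deeper, -3.88 for Slc2a4, -3.60 for Eno3 and -3.36 for Pfkm (limma adjusted p = 0.00019, 0.00021 and 0.00013). The paper had named these animals for variable expression, and they are the rats in which these genes fell least. Deeper falls and smaller p-values therefore follow from leaving them out and add no support. Other values given without them carry the same limit.

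With scan day as a further term, no member was called by limma and 1 had an unadjusted p below 0.05. The changes were then -2.92 for Slc2a4, -2.59 for Eno3 and -2.50 for Pfkm, with adjusted p of 0.15, 0.20 and 0.18. That fit takes its tissue change from the pairs of animals 4 and 9 alone, whose arrays share a scan day. Its changes are therefore the means of these pairs, which are no separate check. In animals 4 and 9 the changes were -2.69 and -3.15 for Slc2a4, -2.46 and -2.72 for Eno3 and -2.28 and -2.73 for Pfkm.

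**Figure D1:**
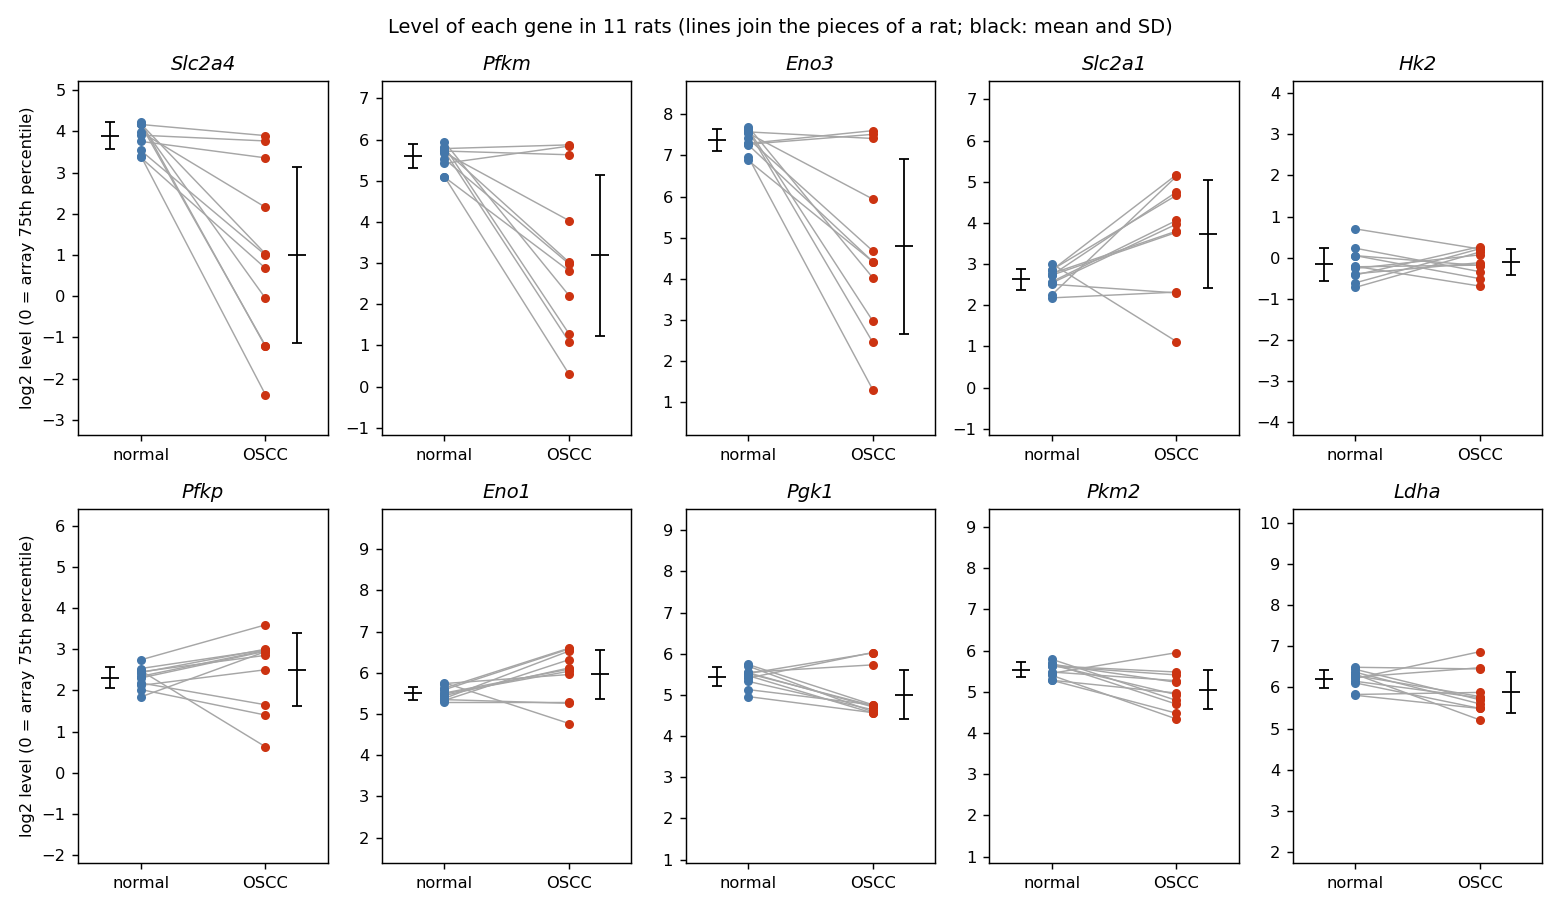
Log2 level of each gene, relative to the 75th percentile of its array, in the normal piece (blue) and the OSCC (red) of 11 rats, with lines joining the pieces of a rat and black bars for mean and SD. Every panel spans the same number of log2 units. Slc2a4, Pfkm and Eno3 fan out downward in OSCC to -2.39, 0.30 and 1.31 while a few OSCC stay at the level of normal tongue, Slc2a1 fans out to both sides, and Hk2 stays within its normal range.

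Of the tumor isoforms, 1 of 4 was called. Slc2a1, the basal glucose transporter of epithelia, ranged from 2.18 through 2.73 to 3.01 in normal tongue and from 1.12 through 3.97 to 5.17 in OSCC. Here 8 OSCC lay above every normal piece, those of animals 17 and 22 lay among them, and that of animal 24 lay below them all. The mean rose 2.14-fold, from 2.64 ± 0.26 to 3.73 ± 1.30 (SD, n = 11 each; log2 change 1.10, SE 0.37, limma adjusted p = 0.032).

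That call for Slc2a1 was close to the threshold. It was lost when any 1 of animals 4, 9, 11, 13, 16, 25 and 26 was left out, with changes of 0.92 to 1.10 and adjusted p of 0.058 to 0.071. The change was larger without animal 24 (1.39, limma adjusted p = 0.0025) and without animals 21, 22 and 24 (1.64, limma adjusted p = 0.00092). Scan day as a term left a change of 1.23 (limma adjusted p = 0.33), the mean of the pairs of animals 4 and 9 (1.43 and 1.02).

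Eno1, the enolase of most tissues, had a similar division of animals but a smaller change. It ranged from 5.30 through 5.49 to 5.76 in normal tongue and from 4.77 through 6.09 to 6.60 in OSCC, where 8 OSCC lay above every normal piece and 3 below. Its change was 0.46 (SE 0.19, limma adjusted p = 0.063), and 0.69 (limma adjusted p = 0.0044, under 2-fold) without animals 21, 22 and 24. A second probe of Eno1 gave 0.52 (limma adjusted p = 0.043), also under 2-fold. The third, which the array annotates to chr10:53300221-53300280 on rn4 and not to the chromosome 5 locus of the other probes, gave 0.94 (limma adjusted p = 0.0076) at a 1.92-fold change, and what it reads is uncertain.

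Pfkp, the platelet-type phosphofructokinase subunit found in many epithelia and tumors, ranged from 1.84 through 2.34 to 2.74 in normal tongue and from 0.63 through 2.94 to 3.59 in OSCC. Its OSCC stood on both sides of the normal range, 7 above it and 3 below it, and only that of animal 16 lay within. The mean change was 0.19 (95% interval -0.34 to 0.71, limma adjusted p = 0.53), and its sign turned to -0.02 when arrays were scaled to their median. It was 0.39 without animal 24, 0.09 without animal 26, and 0.50 (limma adjusted p = 0.03, under 2-fold) without animals 21, 22 and 24.

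Hk2, the insulin-regulated hexokinase that traps glucose in the cell, ranged from -0.72 through -0.22 to 0.70 in normal tongue and from -0.69 through -0.12 to 0.27 in OSCC. All 11 OSCC lay within the range of normal tongue. Its change was 0.06 (95% interval -0.31 to 0.43, limma adjusted p = 0.77), and -0.14 with arrays scaled to their median, so that no direction can be given. Within the rats, however, it was higher by 0.68 to 0.85 in animals 21, 22 and 24, and between -0.57 and 0.33 in the other 8.

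Pgk1 and Ldha, of the lower part of the pathway, changed less than the muscle isoforms. Pgk1, which makes the first ATP of the pathway, had a median of 5.52 in normal tongue and 4.74 in OSCC. Its OSCC stood below every normal piece in 8 rats and above every normal piece in 2, animals 21 and 24, and the change of -0.43 did not pass (SE 0.18, limma adjusted p = 0.067). Ldha, which turns pyruvate into lactate, had medians of 6.25 and 5.75 and a change of -0.33 (SE 0.16, limma adjusted p = 0.11), which became 0.05 under quantile normalization.

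Pyruvate kinase, which makes the last ATP, differed between its probes. On the M1 exon probe, normal tongue ranged from 3.74 through 4.04 to 4.57 and OSCC from -0.21 through 1.63 to 4.83. As for Eno3 and Pfkm, 8 OSCC lay below every normal piece, and those of animals 21, 22 and 24 did not. The change on this probe was -2.13 (SE 0.52, limma adjusted p = 0.0072), a 4.39-fold fall.

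The shared coding probe changed by -0.32 (SE 0.17, limma adjusted p = 0.14). The last and brightest probe, which represents the gene, changed by -0.49 (SE 0.15, limma adjusted p = 0.023), which is under 2-fold. In a rat, the change on the shared probe exceeded that on the M1 exon probe by 1.81 on average (SD 1.61, from -0.51 to 4.1, n = 11 pairs), and it did so in 9 of 11 rats. This comparison of probes was chosen after their values were seen and carries no test. No probe read the exon particular to the M2 form as far as the probe sequences were identified, so the M2 form was not measured on its own.

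**Figure D2:**
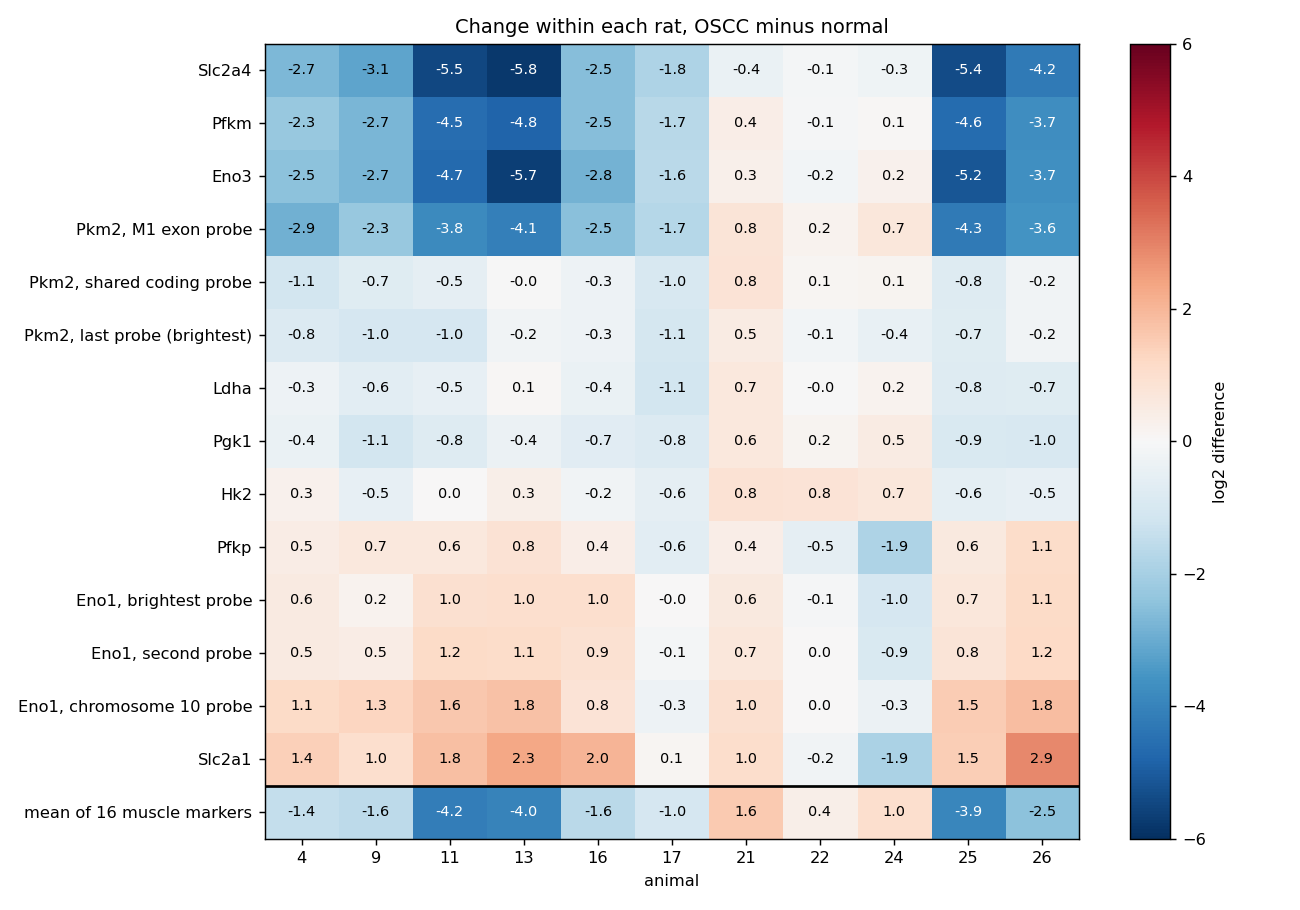
Log2 change, OSCC minus normal, on each of the 14 probes in each of the 11 rats, with the mean change of 16 skeletal muscle marker genes in the bottom row. Blue is lower and red is higher in OSCC. The 4 top rows, Slc2a4, Pfkm, Eno3 and the M1 exon probe of Pkm2, follow the bottom row from rat to rat and are deepest in animals 11, 13 and 25, while the other Pkm2 probes, Ldha, Pgk1 and Hk2 stay between -1.11 and 0.85.

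The choice of these genes poses the question whether isoforms of 1 step moved apart within a rat. For enolase, the Eno1 change minus the Eno3 change was 3.04 on average (SD 2.61, n = 11 pairs), from -1.23 in animal 24 to 6.66 in animal 13, and it was above 0 in 10 of 11 rats (exact sign-flip permutation test, two-sided, p = 0.00488, adjusted over the 3 isoform pairs p = 0.00879). For the transporters, Slc2a1 minus Slc2a4 averaged 3.99 (SD 3.24) and was above 0 in 9 of 11 rats (exact sign-flip permutation p = 0.00586, adjusted p = 0.00879). For phosphofructokinase, Pfkp minus Pfkm averaged 2.59 (SD 2.60) and was above 0 in 8 of 11 rats (exact sign-flip permutation p = 0.0117, adjusted p = 0.0117).

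The smallest p this test can give with 11 pairs is 0.000977. A constant scaling of an array cancels in these differences. The change of the muscle isoform was the larger part of each difference, as the values above show (-2.58 for Eno3 against 0.46 for Eno1). With a sign test, which uses direction only, the difference for Pfkp and Pfkm had p = 0.23 and that for Slc2a1 and Slc2a4 p = 0.098.

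In the 2 pairs scanned on 1 day the mean differences were 2.97 for enolase, 4.15 for the transporters and 3.05 for phosphofructokinase. In the other 9 pairs they were 3.05, 3.96 and 2.49. Without animals 21, 22 and 24 they were 4.29, 5.52 and 3.87 (exact sign-flip permutation test, adjusted p = 0.0078 for each). That p is the smallest the test can give with the remaining pairs. Animals 21, 22 and 24 had differences below the average for every isoform pair, so larger means follow from leaving them out. The mean change of the 4 tumor isoforms minus that of the 3 muscle isoforms was 3.08 (SD 2.53), from -1.03 in animal 24 to 6.54 in animal 13, and is given as a description without a test.

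**Figure D3:**
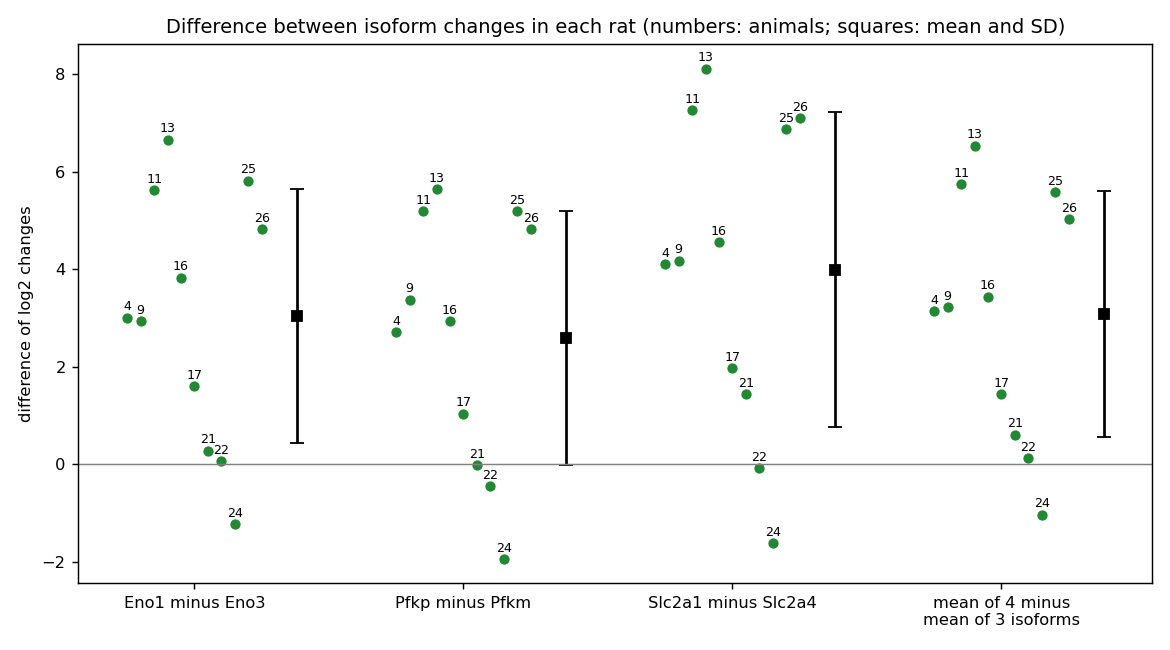
Difference between the log2 changes of paired isoforms in each of 11 rats, and of the mean of the 4 tumor isoforms minus the mean of the 3 muscle isoforms, with animal numbers beside the points and squares for mean and SD. Animals 11, 13, 25 and 26 lie highest in every column, animals 21 and 22 lie between -0.44 and 0.61 except animal 21 for the transporters at 1.44, and animal 24 lies below 0 in all 4.

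Levels of skeletal muscle markers moved with these results. Of 19 muscle marker genes, 16 were on the array, 12 of the 16 were called lower by limma, and the median change was -1.86. None had a higher level in OSCC even at an unadjusted p below 0.05, by limma. The deepest falls among them were those of Myoz1 (-2.64), a protein of the sarcomere's Z line, the oxygen store Mb (-2.43) and the calcium pump Atp2a1 (-2.25). Actn3, a Z line protein named here after its value was seen, went the other way without being called (1.80, limma adjusted p = 0.17), and Ttn was well above background on only 1 array.

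The mean level of the 16 markers lay between 5.16 and 6.02 in normal tongue and between 1.23 and 7.14 in OSCC. It was lower in OSCC in 8 rats and higher in 3, by 1.58 in animal 21, 0.37 in animal 22 and 1.01 in animal 24. These are the 3 rats whose OSCC kept normal levels of Eno3 and Pfkm. None of the markers is among the 10 genes described here.

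Across the 11 rats the change of the muscle isoforms ran nearly parallel to the mean change of the muscle markers. Pearson's r was 0.986 for Eno3, 0.990 for Pfkm and 0.979 for Slc2a4 (permutation test with 100000 resamples, p = 2e-05 for each, the smallest it can give, adjusted over 10 relations p = 6.7e-05), with Spearman's rho of 0.973, 0.964 and 0.927 (adjusted permutation p = 0.0001, 0.0001 and 0.0004). Without the 2 rats farthest from the median marker change, r was 0.995, 0.990 and 0.986. In the 9 pairs scanned on 2 days r was 0.986, 0.992 and 0.980.

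The tumor isoforms other than Hk2 ran against the muscle markers. Slc2a1 had r = -0.689 and rho = -0.773 (adjusted permutation p = 0.036 and 0.019), Eno1 r = -0.666 and rho = -0.709 (adjusted permutation p = 0.043 and 0.029) and Pfkp r = -0.640 and rho = -0.718 (adjusted permutation p = 0.047 and 0.029). Without the 2 farthest rats r was -0.820, -0.814 and -0.823. The sign was therefore opposite to that of the muscle isoforms in the same rats.

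Of the other 4 genes, Pgk1 passed by Pearson's r alone and the rest by neither measure. Pgk1 had r = 0.747 and rho = 0.555 (adjusted permutation p = 0.025 and 0.12), Hk2 r = 0.591 and rho = 0.509 (adjusted permutation p = 0.077 and 0.14) and Ldha r = 0.548 and rho = 0.445 (adjusted permutation p = 0.091 and 0.19). For the brightest probe of Pkm2, r was 0.465 and rho 0.282 (adjusted permutation p = 0.15 and 0.40), and r was -0.008 without the 2 farthest rats. The part of muscle cells in the changes of the members was not tested.

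**Figure D4:**
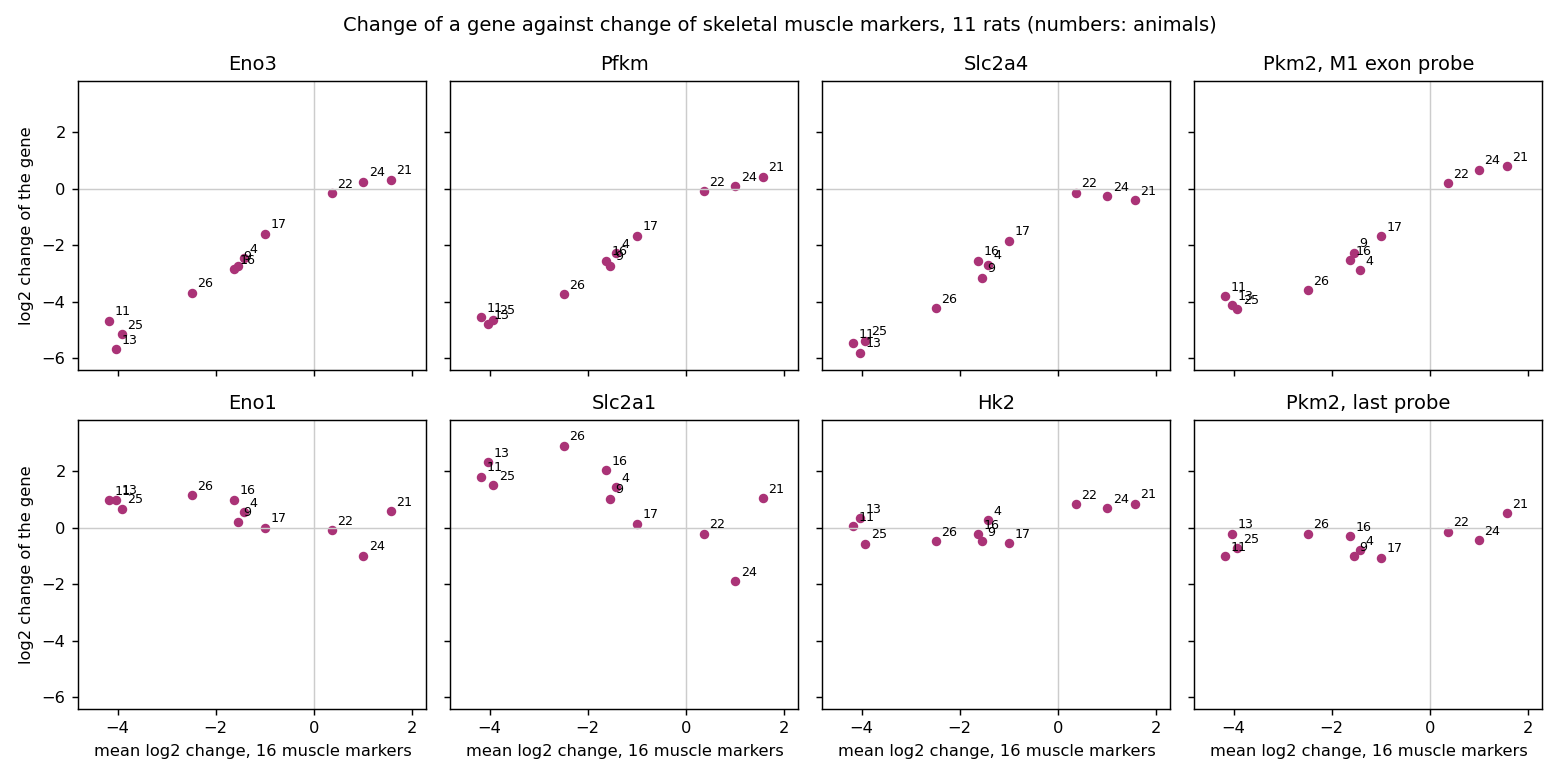
Log2 change of 7 genes, Pkm2 shown on 2 probes, against the mean log2 change of 16 skeletal muscle markers in 11 rats, with animal numbers beside the points. Eno3, Pfkm, Slc2a4 and the M1 exon probe of Pkm2 climb with the markers along a narrow band (r = 0.986, 0.990 and 0.979 for the first 3), Slc2a1 and Eno1 descend (r = -0.689 and -0.666), Hk2 lies between -0.57 and 0.85, and the last Pkm2 probe lies below 0 in 10 of 11 rats.

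Markers of other cell types moved as well. Of 11 neutrophil and macrophage markers 10 were called higher, led by S100a9 (4.78), S100a8 (4.51, on an incomplete set of arrays after an outlier spot was left out) and the growth factor receptor Csf3r (3.33). The mean level of the list was -2.22 to -0.75 in normal tongue and -0.65 to 2.12 in OSCC. Of 8 fibroblast markers 6 were called higher, namely the collagens Col1a1 (1.60), Col1a2 (1.47) and Col3a1 (1.04), the matrix proteoglycans Lum (1.67) and Dcn (1.16), and Fap (1.29), with a mean level of 1.88 to 2.60 in normal tongue and 1.62 to 4.60 in OSCC.

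Of 6 measured basal keratinocyte markers, only the adhesion protein Dsg3 was called (1.07, higher, and 0 genes by the methods' t-test with adjustment), and the list's mean level was 3.05 to 3.75 in normal tongue and 0.60 to 4.66 in OSCC. All 4 measured erythroid markers were called lower, Alas2 (-1.33), Hba-a2 (-1.19), Hbb (-1.13) and Slc4a1 (-1.05, above background in 7 normal and 4 OSCC pieces), with mean levels of 1.34 to 2.72 and -0.05 to 1.92. The globins have close copies that a probe may not separate. None of 6 adipocyte markers (mean level -2.20 to 0.27 in normal tongue, -2.52 to 0.33 in OSCC) was called by limma or by the methods' t-test with adjustment, and 2 had an unadjusted limma p below 0.05, both lower. Of these 2, Lep was well above background on no array. None of 6 proliferation markers (-0.87 to 0.22 and -1.87 to 1.16) was called by either, and 0 had an unadjusted limma p below 0.05. The part of these cells in the changes of the 10 genes was not tested.

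The genes whose change over the 11 rats was most like that of a member were picked by the highest r among 9545 genes well above background on every array. For Eno3 they were the muscle creatine kinase Ckm (r = 0.999), Hfe2, Dhrs7c, Myh8 and Tmod4, and for Slc2a4 they were Tmod4 (r = 0.996), Sypl2, Apobec2, Dhrs7c and Art1. For Pfkm they were Myom2 (r = 0.997), Tnnc2, Asb11, Klhl31 and Myot. Every gene of these 3 lists was lower in OSCC on average, with changes from -2.97 to -1.67. Ckm and Tnnc2 are also among the muscle markers used above, so these lists are no separate support for the relation to those markers.

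For Pfkp the most alike were Dsg3 (r = 0.975), Krt12, a keratin (r = 0.970), Utp15, RGD1559682 and Aspg. For Slc2a1 they were RGD1308396 (r = 0.986), Mrto4, Ppia, RGD1559682 and Ddx39, and for Eno1 RGD1308396 (r = 0.988), Nubp1, Ppia, Cmip and Pus1. Slc2a1 and Eno1 thus shared RGD1308396 and Ppia among their 5. The mean changes of the listed genes ran from 0.14 to 0.44 for Slc2a1 and from -0.04 to 0.34 for Eno1. For Pfkp they were 1.07 (Dsg3), 2.04 (Krt12), 0.22 (Utp15), 0.14 (RGD1559682) and -0.22 (Aspg).

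The first gene was LOC687249 for Pgk1 (r = 0.983, followed by Schip1, Paip2l1, Hipk3 and Csda) and Qk for Hk2 (r = 0.982, followed by RGD1307749, Hipk3, Paip2l1 and Flad1). For Ldha it was Slc29a2 (r = 0.954, followed by Dyrk1a, LOC686076, Hipk3 and Calm3), and for Pkm2 it was Fkbpl (r = 0.935, followed by Psmc1, Rbx1, Psmd4 and Kif13a). All these genes share the arrays and their scaling with the member.

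The remaining enzymes between glucose and lactate fell more often than they rose. Of 21 on the list 20 were measured, 6 were called lower and 1 higher, and the median change was -0.49. Pgam2, the muscle phosphoglycerate mutase, fell by 2.84 on the log2 scale (limma adjusted p = 0.0078), and Pgam1, the mutase of most other tissues, had a change of 0.61 (limma adjusted p = 0.027) that was under 2-fold. Ldhb, the lactate dehydrogenase subunit of oxidative tissues, changed by -2.12 (limma adjusted p = 0.0016).

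Aldoa and Aldoc, which encode enzymes that split the sugar, changed by -1.23 and -1.72 (limma adjusted p = 0.012 and 0.00011), and Aldoc was lower in all 11 rats. Gapdh, often taken as a reference gene, changed by -1.02 (limma adjusted p = 0.0042). Gpi (-0.78) and Tpi1 (-0.74), an isomerase each, stayed under 2-fold.

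Hk3, a hexokinase known from leukocytes, was the single enzyme called higher. Its signal stood well above background in no normal piece and in 9 OSCC. It was at least 4.72-fold higher in OSCC (limma adjusted p = 0.001), against the lowest signal well above background on each normal array or the probe's own signal where that was higher.

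Of the 11 other glucose transporters, 4 were called higher and 1 lower. Slc2a3, the high-affinity transporter of neurons and leukocytes, was well above background on no normal and 8 OSCC arrays and at least 1.05-fold higher by the same bound (limma adjusted p = 0.00049). Slc2a6 (1.29) and the sodium-coupled transporter Slc5a1 (1.27) were called higher while well above background on 4 and 7 normal arrays. Slc2a10 was called higher but was not well above background in any normal piece, and its bound gave no fold. Slc2a12, a further insulin-responsive transporter of muscle and fat, changed by -1.81 (limma adjusted p = 0.0034).

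**Figure D5:**
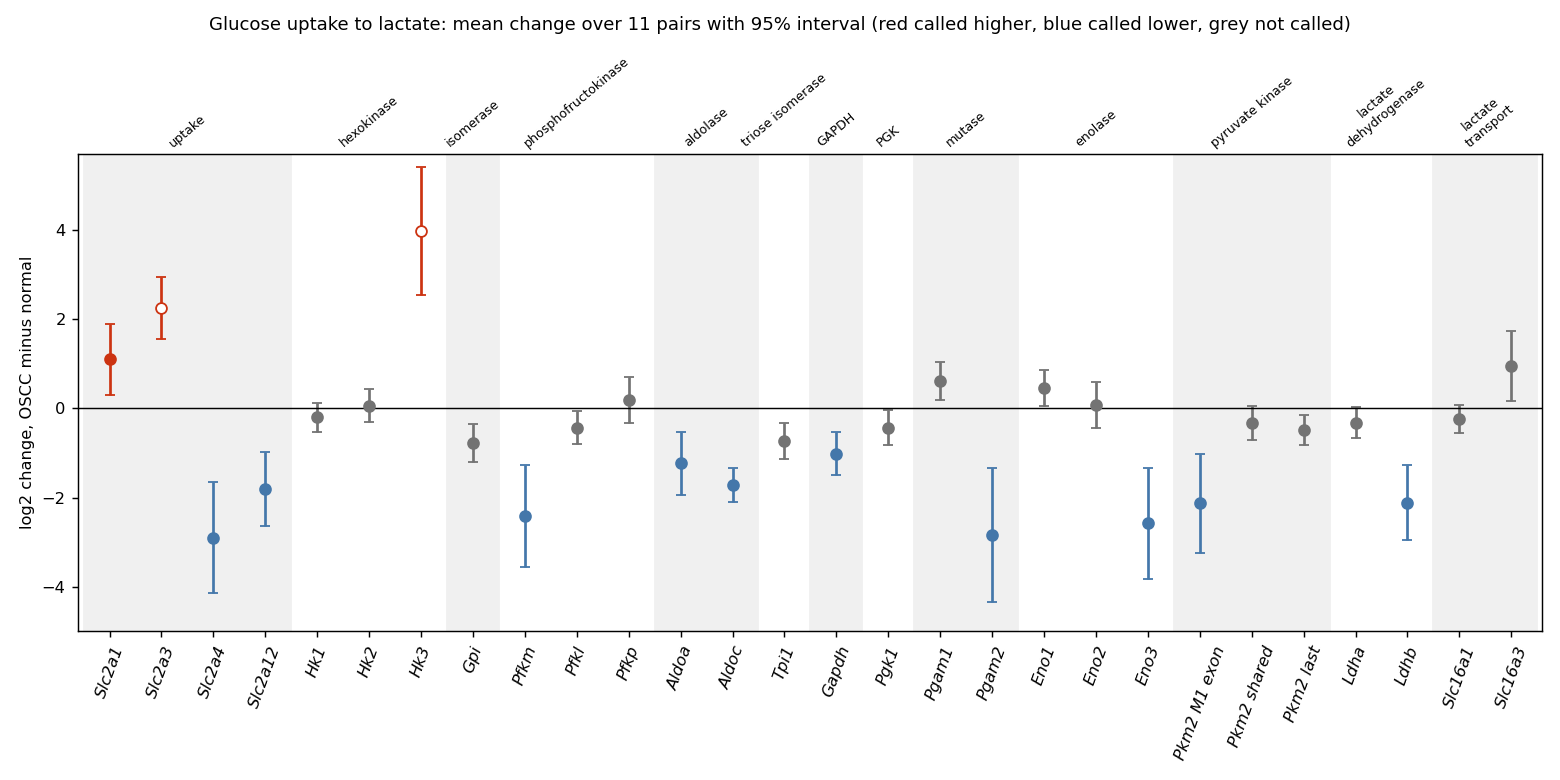
Mean log2 change over 11 pairs with its 95% interval for transporters and enzymes from glucose uptake to lactate export, in the order of the pathway, red where called higher, blue where called lower and grey where not called. Open circles mark Slc2a3 and Hk3, which stood well above background in no normal piece and whose plotted change is therefore not a measured fold. At uptake, phosphofructokinase, mutase and enolase a muscle isoform (Slc2a4, Pfkm, Pgam2, Eno3) lies between -2.41 and -2.90. Its partner (Slc2a1, Pfkp, Pgam1, Eno1) lies above 0, a side that Pfkp (0.19) left when arrays were scaled to their median. The further phosphofructokinase Pfkl lies below 0 (-0.43, not called).

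The enzymes that make or break fructose bisphosphate signals were called in both directions. Of 4 measured PFKFB enzymes, which set the activator of phosphofructokinase, Pfkfb3 (1.19) and Pfkfb4 (1.43, higher in all 11 rats) were called higher. Pfkfb3 was well above background on only 5 normal arrays. Pfkfb1, the liver and muscle form, was called lower (-1.48, limma adjusted p = 0.042). Of 6 genes of gluconeogenesis 1 was called, the muscle fructose bisphosphatase Fbp2 (-1.64, limma adjusted p = 0.03). By the methods' t-test with adjustment 0 genes of either list were called lower, so the calls of Pfkfb1 and Fbp2 were lost. None of 6 pentose phosphate enzymes was called by limma or by the methods' t-test with adjustment, and 2 had an unadjusted limma p below 0.05, 1 in each direction.

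Glycogen genes fell as a group by count, 9 of 15 measured being called lower, with a median change of -1.42, and none was higher even at an unadjusted limma p below 0.05 (8 were called lower by the methods' t-test with adjustment). The deepest falls were those of Phkg1 (-2.56), the muscle catalytic subunit of phosphorylase kinase, the glycogen-targeting subunit Ppp1r3a (-2.38) and the muscle phosphorylase Pygm (-2.37). Beyond pyruvate, 5 of 14 measured genes were called lower. These were the pyruvate dehydrogenase subunits Pdha1 (-1.52) and Pdhb (-1.24), the acetyltransferase Dlat (-1.37), the phosphatase subunit Pdp1 (-1.41) and the kinase Pdk2 (-1.93). The monocarboxylate transporter Slc16a7 was called higher (1.54), on 2 normal arrays well above background, and the lactate exporter Slc16a3 was not called (0.95, limma adjusted p = 0.05).

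Genes of the hypoxia response, many of which share a regulator with glycolytic genes, were called in both directions. Of 13 measured, Hif1a (1.64), the oxygen-regulated subunit of that factor, and the collagen-modifying enzyme Plod2 (2.34) were called higher, and the mitophagy receptor Bnip3 lower (-1.16). The median change of the list was 0.09, and its mean level was higher in OSCC in 10 of 11 rats, by 0.35 on average. Of 14 measured regulators of glycolysis or glucose uptake, Arrdc4, which removes transporters from the membrane, was called higher (1.10). It was well above background on only 2 normal arrays. The coactivator Ppargc1a (-1.62), the kinase subunit Prkaa2 (-1.51) and the muscle transcription factor Mef2c (-1.68) were called lower, 2 of these 3 also by the methods' t-test with adjustment. Over all gene symbols 7.48% were called higher and 7.24% lower. Counts as small as those of the hypoxia and regulator lists are not read as results about the lists.

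The letters ACGTG, 1 form of the core of the element bound by hypoxia-inducible factor, were looked for on both strands. The search covered the 250 bases before each annotated transcription start, using RefSeq sequence on build GRCr8. Other forms of the core were not counted. Windows were found for 8 of the 10 genes, Eno1 having a pair of them, and Slc2a4 and Pgk1 none in the table used. The motif stood in 3 of 9 windows, against 16.6% of 33469 windows of all genes. They belong to Slc2a1, called higher, Pfkm, called lower, and Ldha, not called, and are shown because the direction of the change differs among genes that hold the same letters, which are in capitals and read CACGT where they lie on the other strand.
Slc2a1, chr5:138002272-138002521, plus strand: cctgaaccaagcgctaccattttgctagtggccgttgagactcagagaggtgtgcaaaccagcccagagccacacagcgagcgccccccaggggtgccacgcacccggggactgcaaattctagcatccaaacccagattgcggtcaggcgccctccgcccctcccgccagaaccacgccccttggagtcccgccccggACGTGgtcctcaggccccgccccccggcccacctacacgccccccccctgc
Ldha, chr1:106507842-106508091, plus strand: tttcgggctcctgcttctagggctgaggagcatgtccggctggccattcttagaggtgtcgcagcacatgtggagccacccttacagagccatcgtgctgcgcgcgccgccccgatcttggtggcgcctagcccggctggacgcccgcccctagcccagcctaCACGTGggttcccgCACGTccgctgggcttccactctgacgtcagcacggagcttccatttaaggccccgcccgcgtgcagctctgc
Pfkm, chr7:131113849-131114098, plus strand: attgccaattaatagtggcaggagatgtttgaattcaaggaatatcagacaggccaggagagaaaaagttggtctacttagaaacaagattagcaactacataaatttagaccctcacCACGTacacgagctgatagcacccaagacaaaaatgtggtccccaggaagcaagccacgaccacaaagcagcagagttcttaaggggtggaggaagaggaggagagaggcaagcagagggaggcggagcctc
In the Ldha window the letters match 3 times, since the palindrome holds an overlapping match on each strand. The letters CANNTG, the core of the box bound by muscle regulatory factors, stood in 4 of the 9 windows against 65.5% of all windows, with 1 match before Eno3 and none before Pfkm. Such matches describe the letters of these windows only.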

How the data were processed

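The authors hybridized 22 tissue RNAs to one-color Agilent Rat GE 4x44K v3 arrays, and deposited Feature Extraction 9.5.3.1 files whose processed intensity is background-subtracted and detrended but not scaled between arrays. They also deposited a table scaled with GeneSpring GX v7.3.1 to the 75th percentile, a linear ratio to that percentile, which matched the processed intensity within 2% for 99.97% of values of at least 0.5.

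Spots of a probe were averaged as log2 intensity, without 9196 outlier spots (0.975%), and the array's 75th percentile was subtracted. That percentile was 236.8 to 654.9 on normal and 338.7 to 1414 on OSCC arrays, and 48.42% to 65.49% of probes were well above background on an array. Precision is limited by the number of arrays. The p-values of the tissue comparison rest on how the change within a rat varies between rats, which array, slide and scan-day differences also enter. The comparison of tissues used limma (3.58.1, under R 4.3.3) with terms for rat and tissue and Benjamini-Hochberg adjustment over 30367 probes. Pairing comes from the animal numbers, and deviations of a rat's tissues from their means correlated from -0.21 to 0.24 (median -0.02). On simulated data for this comparison, 80 of 100 probes changed by 1.5 log2 units and 99 of 100 changed by 3 were called. In the same simulation of 30299 probes in all, 2 unchanged ones were called. Its noise was independent between probes and held no rat, scan-day or slide effect. It therefore does not measure errors that such effects bring to the real arrays. Isoform differences and correlations used permutation tests in scipy 1.17.1.

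The members and gene lists were chosen with earlier results of these data known. All members and probes are named, every called gene of a list with at most 8 calls, otherwise the 3 largest changes each way, the best measured enzyme of a step otherwise missing, and the 5 genes most like a member, except a called gene of a list that is counted but not reported here. The alternatives were other scalings, normexp, the authors' values, scan day, slide, no pairing block, the methods' t-test, other thresholds, filters and probe averaging, and left-out animals.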

Additional observations from a re-analysis of the deposited data

How the results depend on the processing

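Slc2a4, Pfkm and Eno3 were called lower in every alternative run except scan day as a term, and in all 11 leave-one-out fits (-3.17 to -2.61, -2.69 to -2.17 and -2.87 to -2.27). With scan day as a term 0 members were called higher and 0 lower, and 3 probes in all, and 9 of the 11 OSCC arrays were scanned on the day that held no normal array. The tissue change of that fit therefore rests on the pairs of animals 4 and 9 alone. The first scan day alone (2 OSCC against 11 normal arrays, unpaired, chosen after seeing the data) called 12945 probes, 1 member higher and 3 lower. Slc2a1 was the 1 member called higher, and 0 were with arrays scaled to their median, normexp, slide as a random block or the methods' t-test with adjustment, and in 7 leave-one-out fits (range 0 to 1). Without the replicate block that pairs a rat's tissues, 4227 probes, 1 member higher and 3 lower were called, so the pairing changed no member's call. Over all probes 4201 were called, and 1701 with normexp, 13376 without a minimum fold, and 6924 without animals 21, 22 and 24. The median change of all probes was -0.24, and -0.44 with arrays scaled to their median and -0.03 with quantile normalization. Directions that turned were all of uncalled genes, namely Ldha (0.05, quantile), Pfkp (-0.02, median scaling) and Hk2, which was -0.14 with median scaling, -0.10 with scan day, -0.21 without animals 21, 22 and 24, -0.24 on the first scan day alone and -0.02 to 0.13 over the leave-one-out fits, below 0 without animal 21 or 22. The isoform differences kept their direction, at 2.59 (p = 0.23) for Pfkp minus Pfkm and 3.99 (p = 0.098) for Slc2a1 minus Slc2a4 by the exact sign test. The cause of these changes was not tested.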
